A study of Sus scrofa with 31 samples.

Results

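AQP4, CLDN5, GPR26, SULT4A1 and RTL6 are 5 of the 31907 genes counted in RNA sequencing of pig microglia, and they were followed here as a measure of how much RNA of other brain cells was present in each sort. They were chosen by their measured level in sorted cells against whole brain tissue, so that contrast is described and not tested. For every sample the normalized level of each gene, as CPM (counts scaled to a fixed library total), was expressed as a percent of its mean in hippocampal tissue. The study profiled microglia of the cerebellum, the frontal cortex and the hippocampus (n = 8 samples each), macrophages from the lung (n = 3) and whole hippocampal tissue (n = 4). The 31 samples came from 15 pigs, of which 9 gave more than 1 sample, and are named below by the pig's tag number. All were male crossbred piglets in the fourth week of life (Large White and Landrace sows, Duroc semen), and no treatment was compared. They were born in 2 kinds of housing, which were not used here because the labels do not give them per sample. Microglia were sorted as CD11b-high, CD45-negative or low cells after mechanical dissociation and a Percoll gradient that removes myelin, and macrophages as F4/80+, CD163-low or negative cells of the lung lavage. Tissue RNA was extracted with another kit than that of sorted cells, so extraction and group cannot be told apart, and tissue of the cerebellum or frontal cortex was not analysed here.

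The genes differ in where the brain uses them. AQP4 encodes the water channel of astrocyte endfeet, which wrap the vessels of the brain, and CLDN5 encodes the claudin that seals the tight junctions between brain endothelial cells. GPR26 is an orphan G protein-coupled receptor found mainly in the brain, and SULT4A1 is a brain member of the cytosolic sulfotransferase family, found in neurons. RTL6 is a retrotransposon Gag-like gene that mammals domesticated from a mobile element, and its protein has been described in mouse microglia. If a sort held a fixed share of hippocampal RNA and the sorted cells made none of a gene's transcript, that gene's percent would be that share, and all such genes would give the same value. In bulk samples fewer cells of a type and less RNA per cell cannot be told apart.

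The gene models lie on Sscrofa11.1 as annotated by RefSeq (annotation release 106), and none of the 5 overlaps another gene. AQP4 (ENSSSCG00000035965) is on chromosome 6 (111407632 to 111422169, minus strand) with 6693 exonic bases. CLDN5 (ENSSSCG00000041667) is a gene of 1 exon of 893 bases on chromosome 14 (51161490 to 51162382, minus strand). GPR26 (ENSSSCG00000010727) is on the same chromosome (133174553 to 133202901, plus strand) with 3 exons of 10280 bases. SULT4A1 (ENSSSCG00000000026) has 8 exons of 2207 bases on chromosome 5 (5131272 to 5156898, plus strand). RTL6 (ENSSSCG00000000022) has 2 exons of 5553 bases on the same chromosome and strand (4649137 to 4654898), with 476373 bases and 8 genes between the pair.

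Total counts per sample ranged from 18438494 to 43477403, and the level that 3 counts correspond to, used as a floor, from 0.0656 to 0.150 CPM. This floor covers counting error only, since PCR copies of a molecule are counted as separate reads. The sorts were rich in microglial RNA: the 9 measured genes of a microglia list, among them CSF1R and SALL1, summed to between 1375% and 2751% of their tissue level in all 24 sorts, against 109% to 208% in lung macrophages. The frontal cortex sorts of pigs 12599 and 12891 were above the other 22 on CLDN5, GPR26 and SULT4A1, so results that they move are given with and without them. The median over the genes of the microglia list was at least 1476% in frontal cortex sorts, and at least 2430% without the 2 sorts. Frontal cortex means with and without them were 670 and 778 CPM for P2RY12 and 432 and 483 CPM for SALL1. For CSF1R they were 2696 and 2654 CPM, and for C1QA 679 and 667 CPM.

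In hippocampal tissue the genes differed widely in level. AQP4 had 761 ± 169 CPM (SD, n = 4), RTL6 96.7 ± 6.89, SULT4A1 81.6 ± 16.6, GPR26 33.9 ± 11.02 and CLDN5 26.4 ± 2.94 CPM. Per kilobase of exon, AQP4 was at 114 CPM, SULT4A1 at 37.0, CLDN5 at 29.6, RTL6 at 17.4 and GPR26 at 3.30 CPM. The depth of the percent scale follows from these levels. In microglia, 3 counts correspond to between 0.01003% and 0.0197% of tissue for AQP4, and to between 0.289% and 0.566% for CLDN5. The same limits were 0.225% to 0.441% for GPR26, 0.0934% to 0.183% for SULT4A1 and 0.0788% to 0.155% for RTL6. Values under these limits rest on at most 3 counts, and AQP4 could be followed to lower percents than CLDN5 or GPR26.

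The 5 genes did not give the same percent for a sort. Over the 24 microglia samples the median was 0.258% of tissue for AQP4, 0.458% for GPR26, 1.14% for CLDN5 and 12.2% for RTL6, and SULT4A1 had no count in 15 of them. RTL6 was the highest of the 5 in 23 of 24 sorts, and GPR26 in the other, the frontal cortex sort of pig 12891. When RTL6 is set aside, CLDN5 was highest in 11 sorts, GPR26 in 11, and AQP4 and SULT4A1 in 1 each. All 24 sorts were over 5% of tissue on RTL6, but no sort was on AQP4, 2 were on CLDN5 and on SULT4A1, and 3 were on GPR26. Without the 2 frontal cortex sorts the medians were 0.246% for AQP4, 1.05% for CLDN5, 11.6% for RTL6 and 0.129% for GPR26, so only that of GPR26 moved by more than 1.5 times.

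**Figure D1:**
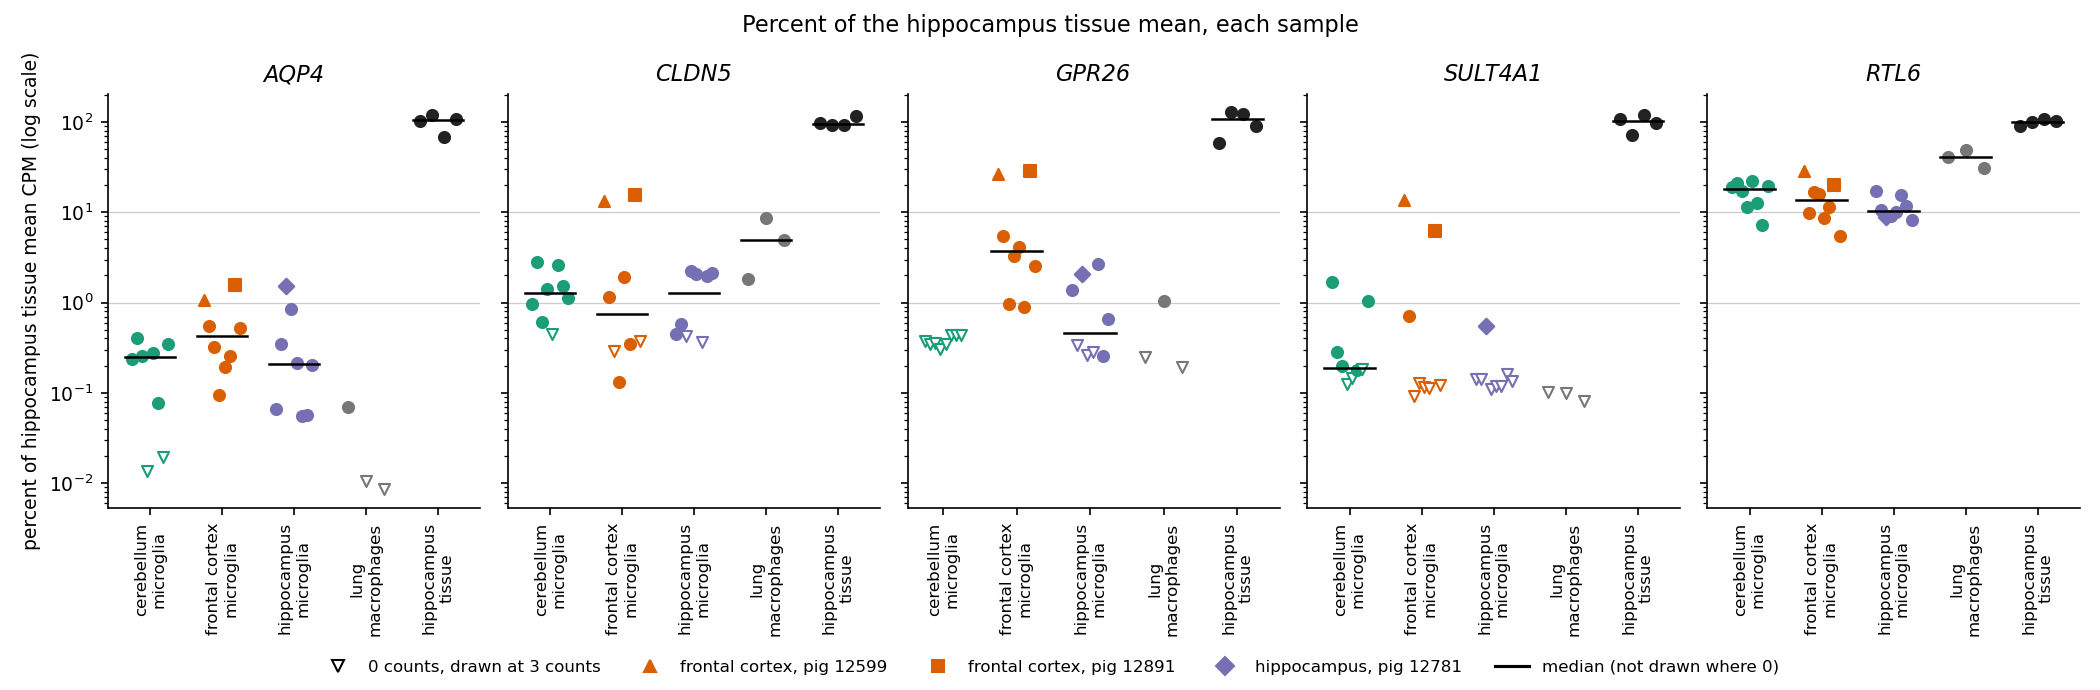
Each point is 1 sample, with its normalized CPM as a percent of the mean of the 4 hippocampus tissue samples on a log axis; samples with 0 counts are open triangles at the level of 3 counts, and black lines are group medians above 0. RTL6 lies between 5.42% and 29.0% in every microglia sort and higher in lung macrophages, whereas GPR26 is at 0 counts in all 8 cerebellum sorts.

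AQP4, the astrocyte gene, was low in all regions. It was at 0% to 0.406% of tissue in cerebellar sorts (median 0.247%), at 0.0954% to 1.59% in frontal cortex sorts (median 0.423%) and at 0.0547% to 1.52% in hippocampal sorts (median 0.210%). Only the cerebellar sorts of pigs 12758 and 12891 had no count. The highest values were those of the frontal cortex sorts of pigs 12891 (1.59%, 253 counts) and 12599 (1.07%, 187 counts) and of the hippocampal sort of pig 12781 (1.52%, 309 counts), and the ranges of the 3 regions overlap. In lung macrophages AQP4 had 19 counts in the sample of pig 12821 (0.0702%) and none in the other two.

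CLDN5, the endothelial gene, was counted in most sorts but with few reads. Cerebellar sorts were at 0% to 2.81% (median 1.28%), frontal cortex sorts at 0% to 15.7% (median 0.750%, or 0.239% without the 2 sorts) and hippocampal sorts at 0% to 2.26% (median 1.29%). The frontal cortex sorts of pigs 12891 and 12599 were at 15.7% and 13.4%, and the other 22 sorts at 2.81% or less. With 8 of 24 sorts at or under 3 counts, the order of the remaining sorts rests on few reads. Lung macrophages had 1.81%, 8.65% and 4.96% of the tissue level in pigs 12821, 12829 and 12984, so 2 of the 3 were above the 22 sorts other than the frontal cortex sorts of pigs 12599 and 12891.

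GPR26, the orphan receptor, was found in all frontal cortex sorts and in none of the cerebellum. None of the 8 cerebellar sorts had a count, which allows at most 0.304% to 0.441% of the tissue level in each. The 8 frontal cortex sorts had between 10 and 206 counts and lay at 0.901% to 28.7% (median 3.68%). The 8 hippocampal sorts lay between, at 0% to 2.64% (median 0.458%), with 3 of them at 0 counts. The values of cerebellar and frontal cortex sorts did not overlap, and the frontal cortex and hippocampal ranges did. How many of all genes show no overlap between these regions was not counted. Of the lung macrophages, that of pig 12829 had 13 counts (1.03%) and the others none.

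SULT4A1, the sulfotransferase-like gene, was absent from most sorts at this depth. It had a count in 5 of 8 cerebellar, 3 of 8 frontal cortex and 1 of 8 hippocampal sorts. The frontal cortex sorts of pigs 12599 and 12891 were at 13.8% (259 counts) and 6.19% (106 counts), and the next highest of that region, that of pig 12707, was at 0.712%. In the cerebellum the sorts of pigs 12583 and 12902 were highest, at 1.67% and 1.04%. No lung macrophage sample had a count.

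RTL6, the Gag-like gene, was counted in every sort. Its percent was 7.32% to 22.1% in cerebellar sorts (median 18.2%), 5.42% to 29.0% in frontal cortex sorts (median 13.7%) and 8.31% to 17.1% in hippocampal sorts (median 10.2%), with at least 142 counts in every sort. The sorts varied less on it than on any other member, with a coefficient of variation of 40.9% over the 24 sorts, against 111% for AQP4 and 293% for SULT4A1. Lung macrophages, which were washed from the airways of the lung, were at 41.4%, 49.1% and 30.9% of the brain tissue level in pigs 12821, 12829 and 12984. All 3 lay above all 24 microglia sorts, and how many of all genes do so was not counted. RTL6 RNA was thus also present in sorted cells from outside the brain, and its source in the microglia sorts was not tested.

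The frontal cortex sorts of pigs 12599 and 12891 had their own pattern over the 5 genes. The sort of pig 12599 was at 1.07% on AQP4, 13.4% on CLDN5, 26.5% on GPR26, 13.8% on SULT4A1 and 29.0% on RTL6. The sort of pig 12891 was at 1.59%, 15.7%, 28.7%, 6.19% and 20.0% on the same genes. In both sorts AQP4 was the lowest of the 5. The GPR26 percent was 24.7 times the AQP4 percent in pig 12599 and 18.1 times in pig 12891, and this ratio ran from 3.04 to 34.2 among all 8 frontal cortex sorts. The other 6 sorts of the region were at 0.0954% to 0.549% on AQP4, 0% to 1.92% on CLDN5, 0.901% to 5.47% on GPR26, 0% to 0.712% on SULT4A1 and 5.42% to 16.6% on RTL6. The total counts of the sorts of pigs 12599 and 12891, 25327662 and 22197936, are the 2 lowest of the region, and the part of depth was not tested.

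**Figure D2:**
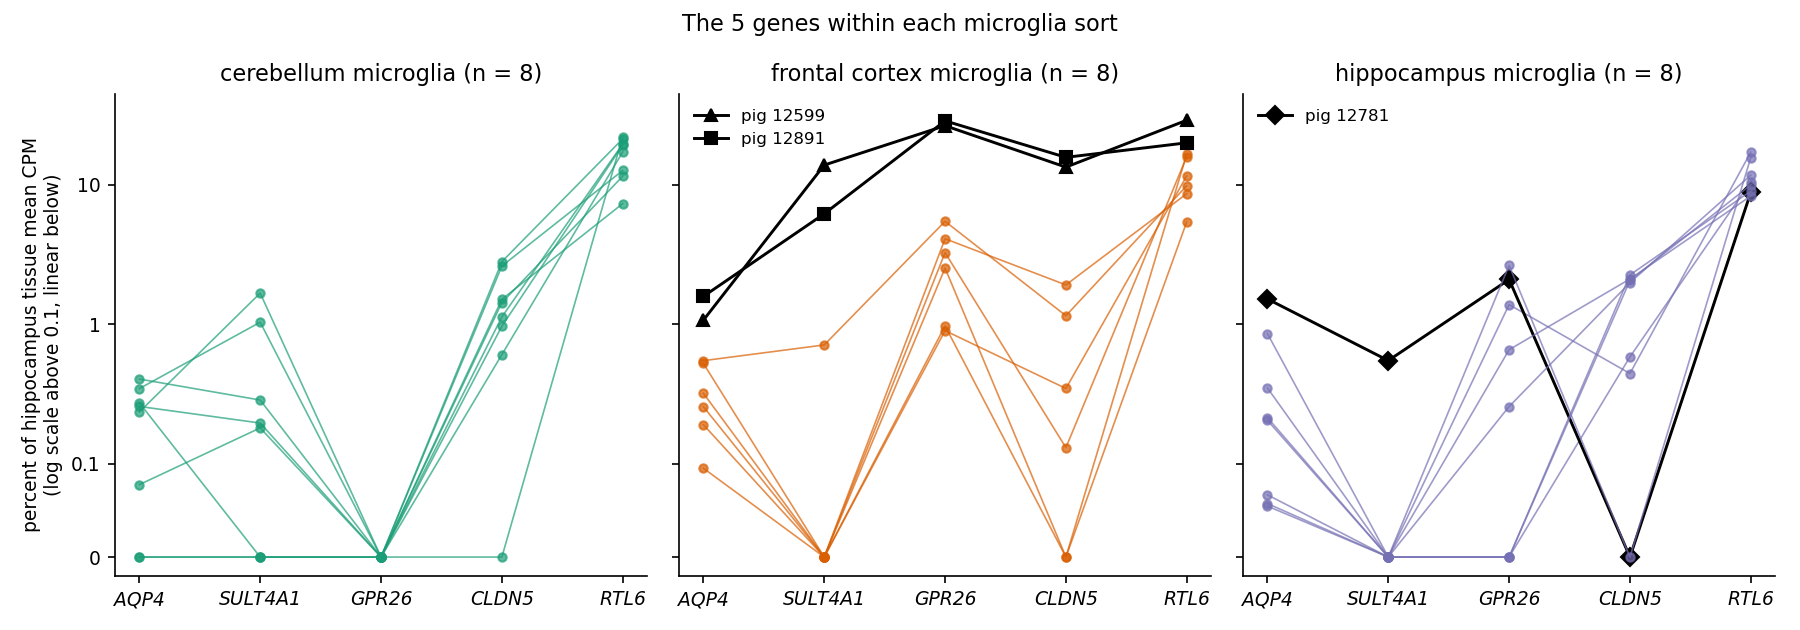
Each line is 1 microglia sort across the 5 genes, as a percent of the hippocampus tissue mean (log axis above 0.1, linear below). The frontal cortex sorts of pigs 12599 and 12891 are high on 4 genes together, at 6.19% to 29.0%, but at 1.07% and 1.59% on AQP4, and the hippocampus sort of pig 12781 is high on AQP4 with CLDN5 at 0.

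In other sorts of the same pigs CLDN5, GPR26 and SULT4A1 were low. The cerebellar sort of pig 12599 was at 0.406% on AQP4, 2.81% on CLDN5, 0% on GPR26 and 0.287% on SULT4A1. That of pig 12891 was at 0% on AQP4, GPR26 and SULT4A1 and at 1.51% on CLDN5. RTL6 was at 21.3% and 7.32% in these cerebellar sorts. The hippocampal sort of pig 12781, from which no other sample was taken, had another pattern: 1.52% on AQP4 and 2.10% on GPR26, but 0.550% on SULT4A1 and no count of CLDN5. In the hippocampal sort of pig 12817 AQP4 was at 0.859% and CLDN5 at 2.26%, with GPR26 and SULT4A1 at 0 counts. For the 4 pigs with hippocampal microglia and tissue, the pig's own tissue could serve as the reference. AQP4 was then at 0.208%, 0.0460%, 0.0843% and 0.188% in pigs 12821, 12829, 12847 and 12872, against 0.215%, 0.0547%, 0.0575% and 0.205% of the tissue mean. RTL6 was at 11.04%, 15.6%, 10.9% and 8.16% of the own tissue, against 9.97%, 15.7%, 11.7% and 8.31%.

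Between the 3 regions, 1 of the 5 genes passed the test, GPR26, where 2.03% of all 11633 tested genes did (edgeR's quasi-likelihood F test with Benjamini-Hochberg adjustment over the tested genes, adjusted p under 0.01). All 5 passed the filter on low counts (over 10 CPM in all samples of a group), and all did so through the tissue samples, RTL6 through lung macrophages too, and none through microglia. GPR26 had 3.07 ± 3.92 CPM (SD, n = 8) in frontal cortex sorts, 0.299 ± 0.354 CPM in hippocampal sorts and 0 in cerebellar sorts, with an adjusted p of 0.00203 in edgeR. Cerebellar and frontal cortex sorts differed with an adjusted p of 0.0014 in edgeR, a call made for 1.87% of genes and in this direction for 0.971%, and the frontal cortex mean was at least 23.8-fold higher than 3 counts per cerebellar library. Cerebellar against hippocampal sorts gave an adjusted p of 0.0312, and frontal cortex against hippocampal sorts differed by 3.34 on the log2 scale (SE 1.12) with an adjusted p of 0.0954, neither past the threshold in edgeR. In these comparisons 0 of the 5 genes were called (2 with an unadjusted p under 0.05 in each), against 0.602% and 0.318% of all genes. Limma-voom called 0 in both, and DESeq2 called GPR26 for cerebellum against hippocampus. In that comparison DESeq2 called 452 of 11633 genes, against 70 in edgeR. Since the genes were chosen with results of these samples known, the GPR26 call is not independent evidence.

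The GPR26 call did not rest on the 2 sorts that stood apart. Without them the adjusted p was 0.00564 for the 3 regions and 0.00293 for cerebellum against frontal cortex in edgeR, and the 6 remaining frontal cortex sorts had 0.974 ± 0.607 CPM, at least 7.54-fold above the cerebellar floor. With the pig as a replicate block in edgeR the adjusted p was 0.0499 for the 3 regions and 0.0191 for cerebellum against frontal cortex, so both calls were lost. That fit called 85 and 148 of all 11633 genes in these tests, against 236 and 217 without the block. With the block as a random effect in limma both GPR26 calls were kept, at 0.00838 and 0.00284, where 333 and 381 genes were called. In limma-voom without the block the test over the 3 regions gave an adjusted p of 0.0153 and that of cerebellum against frontal cortex 0.00625.

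The other 4 genes did not pass between regions. Mean AQP4 was 1.52 ± 1.18 CPM in sorts of the cerebellum, 4.37 ± 3.87 in those of the frontal cortex and 3.17 ± 3.95 in those of the hippocampus (SD, n = 8 each), with an adjusted p of 0.346 in edgeR. CLDN5 was at 0.365 ± 0.251, 1.08 ± 1.72 and 0.312 ± 0.267 CPM in the same order (adjusted p = 0.376 in edgeR). SULT4A1 was at 0.344 ± 0.498, 2.11 ± 4.10 and 0.0561 ± 0.159 CPM (adjusted p = 0.0588), and frontal cortex minus hippocampus was 5.15 on the log2 scale (SE 1.56) with an adjusted p of 0.0649 in edgeR. Without the 2 frontal cortex sorts that difference was 0.84 (SE 1.33, adjusted p = 0.882), and the SULT4A1 mean of the remaining 6 was 0.0969 ± 0.237 CPM. RTL6 was at 15.8 ± 5.12, 14.1 ± 7.24 and 11.01 ± 3.18 CPM (adjusted p = 0.335), with log2 fold changes of 0.16 (SE 0.25), 0.52 (SE 0.26) and 0.36 (SE 0.26) for cerebellum minus frontal cortex, cerebellum minus hippocampus and frontal cortex minus hippocampus. The frontal cortex means without the 2 sorts were 2.46 ± 1.38 CPM for AQP4, 0.156 ± 0.206 for CLDN5 and 10.96 ± 4.17 for RTL6 (SD, n = 6). A p that misses the threshold does not show equal levels.

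Against lung macrophages 0 of the 5 genes passed in edgeR, where a call needed a fold above 3 beside an adjusted p under 0.01, and 22.3% of tested genes were called, 12.2% as higher and 10.1% as lower in microglia. Of the 5, 3 had an unadjusted p under 0.05 in edgeR, limma-voom called 1 and DESeq2 called 2. Over all 11633 tested genes edgeR called 2597, limma-voom 2389 and DESeq2 2885. RTL6 was lower in microglia, at 13.7 ± 5.58 CPM (SD, n = 24) against 39.1 ± 8.88 CPM (SD, n = 3), a difference of -1.54 on the log2 scale (SE 0.27) with an adjusted p of 1.82e-05 in edgeR. This passed the p threshold and lay just under the fold of 3, and without the frontal cortex sort of pig 12599 the log2 fold change was -1.61, past it. With the pig as a replicate block it was -1.62 (adjusted p = 0.00744 in edgeR), also past both.

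AQP4 had 3.02 ± 3.34 CPM in microglia and 0.178 ± 0.308 CPM in lung macrophages, a log2 fold change of 4.01 (SE 1.32) whose adjusted p of 0.0107 in edgeR lay just over the threshold. It was 0.00625 without the lung macrophages of pig 12821, the only such sample with AQP4 counts. SULT4A1 had 0.838 ± 2.46 CPM in microglia, at least 10.9-fold above 3 counts per macrophage library (adjusted p = 0.0773 in edgeR), and at least 2.24-fold without the 2 frontal cortex sorts. CLDN5 was at 0.585 ± 1.03 CPM in microglia and 1.36 ± 0.905 CPM in macrophages, a difference of -1.44 on the log2 scale (SE 1.08) with an adjusted p of 0.255 in edgeR. For GPR26 the means were 1.12 ± 2.59 and 0.117 ± 0.202 CPM, and the fitted log2 fold change of 0.40 (SE 0.79, adjusted p = 0.679 in edgeR) averages 3 regions of which the cerebellum is at 0. Without the 2 sorts it was -0.16.

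**Figure D3:**
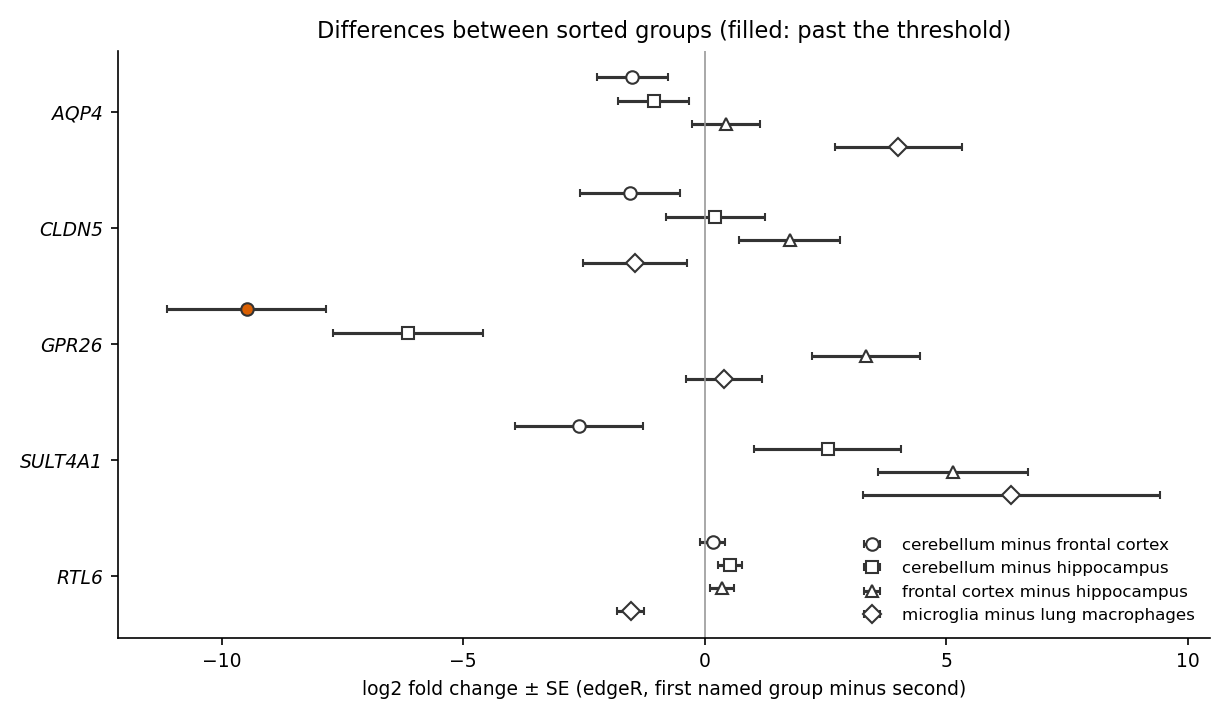
Fitted log2 fold changes with their SE from edgeR (first group minus second) for each gene in 4 comparisons; filled symbols passed the threshold. Only GPR26 in cerebellum minus frontal cortex did, and its size depends on the cerebellar counts of 0.

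Whether the genes ranked the same sorts high was described by correlations of log2 CPM over the 24 sorts, which share 14 pigs and are thus not fully independent. Of the 10 pairs, 3 had a Benjamini-Hochberg adjusted permutation p under 0.05: AQP4 with SULT4A1 (Pearson's r = 0.53, adjusted p = 0.0308; Spearman's rho = 0.56, adjusted p = 0.0493), CLDN5 with SULT4A1 (r = 0.57, adjusted p = 0.0303; rho = 0.36, adjusted p = 0.293) and SULT4A1 with RTL6 (r = 0.54, adjusted p = 0.0303; rho = 0.50, adjusted p = 0.0689). Without the 2 samples farthest from the median of the first gene, r was 0.58, 0.13 and 0.32. Without the frontal cortex sorts of pigs 12599 and 12891, r was 0.37, 0.13 and 0.32, and none of the 10 pairs had an adjusted permutation p under 0.05, so these calls are not made without those sorts. Within the 8 cerebellar sorts AQP4 and SULT4A1 had r = 0.63, which did not pass. GPR26 and SULT4A1 had r = 0.45 over all sorts (adjusted permutation p = 0.06) and -0.11 without the pair. Within the 8 frontal cortex sorts the 6 pairs among AQP4, CLDN5, GPR26 and SULT4A1 had r between 0.70 and 0.91, again with both sorts at the upper end. Within the cerebellar sorts AQP4 and RTL6 had r = 0.92, the 1 of 6 pairs that passed there, and within the hippocampal sorts the same pair had r = -0.76, as did CLDN5 and GPR26, with 0 of 6 pairs passing.

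The genes most alike to each member over the 24 sorts, by Pearson's r of log2 CPM among 9811 tested genes with a symbol, differed between members. PLPP3 (r = 0.88), PLPPR4 (0.84) and NRG3 (0.83) were closest to AQP4. PCDH12 (0.84) and MPPED1 (0.83) were among the closest to GPR26. SULT4A1 was followed by PRKAA2, a catalytic subunit of AMP-activated kinase (0.96), FAM110B (0.93) and SLC32A1, the vesicular transporter of inhibitory transmitters (0.92). The closest genes to CLDN5 reached only 0.71 (KBTBD7), 0.69 (STK36) and 0.69 (LMTK2), and those to RTL6 were RNFT2 (0.84), NPDC1 (0.81) and DGKQ (0.76). Each of these named genes had its highest sort in the frontal cortex of pig 12599 or 12891. PCDH12, unlike GPR26, was at 9.15 CPM or more in every sort against 6.48 CPM in tissue.

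Marker lists of brain cells were summed and expressed on the same percent scale. The neuron list (12 genes measured, such as NEFL, SYT1 and SNAP25) had a median of 1.82% of tissue in cerebellar sorts, 0.894% in frontal cortex and 0.360% in hippocampal sorts, and 0.298% in lung macrophages. The macrophage sum was carried by SYN1 and ENO2, at 9.89 and 4.02 CPM. The median over the genes of this list was lower in lung macrophages (group median 0.0108%) than in hippocampal sorts (0.246%). By the sum, the highest sort within each region was that of pig 12599 in the frontal cortex (9.59%), of pig 12902 in the cerebellum (6.91%) and of pig 12781 in the hippocampus (1.68%). On SULT4A1 these sorts were at 13.8%, 1.04% and 0.550%. The frontal cortex sort of pig 12891 was at 5.87% and the cerebellar sort of pig 12583 at 5.12%. The part of neuronal RNA in the SULT4A1 values was not tested. On a list of forebrain neuron genes (9 measured, such as CAMK2A, SLC17A7 and NEUROD2) the same frontal cortex sorts were at 13.1% and 10.8%, and all other sorts at 2.94% or less. CAMK2A had a higher mean in frontal cortex than in cerebellar sorts (25.4 against 1.22 CPM). SLC17A7 (11.9 against 15.5 CPM) and NEUROD2 (4.78 against 5.51 CPM) had higher means in cerebellar sorts, so the list is not particular to the forebrain. Without the 2 sorts the frontal cortex means of these genes were 9.70, 3.87 and 1.72 CPM.

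Oligodendrocyte genes (9 measured, such as MBP and CNP) reached 23.6% and 16.1% in the frontal cortex sorts of pigs 12599 and 12891, against 1.86% to 9.22% in the other 22. Lung macrophages were at 1.76% to 3.18% on this list, next to medians of 2.37% in cerebellar and in hippocampal sorts. The macrophage sum was carried by MBP and CNP, at 152 and 58.6 CPM. The median over the genes of this list was 0.211% to 0.485% in lung macrophages. It was 1.06% to 5.87% in cerebellar and 0.756% to 3.74% in hippocampal sorts. CNP was at 6.36% in lung macrophages and at 2.51% to 3.42% in the 3 regions. Oligodendrocyte precursor genes (6 measured) were at 10.4% and 11.6% in the 2 sorts and at 3.56% to 10.01% in the others, but at 9.04% to 24.9% in lung macrophages, where VCAN, a proteoglycan gene, was at 34.8%. VCAN was at 11.5% to 11.9% in the 3 regions and carried these sums. The median over the genes of this list reached 11.6% over the 24 sorts and 4.24% over the 22 without the 2 sorts. In lung macrophages this median was 0% to 0.338%. The astrocyte list that holds AQP4 (9 measured) ran from 3.51% to 8.97% over all sorts, and the sorts of pigs 12599 (5.20%) and 12891 (8.38%) lay within this range. This sum was carried by the glutamate transporter gene SLC1A3, at 25.6% to 39.4% of tissue in the 3 regions, while GFAP was at 0.798% to 0.984% and SLC1A2 at 0.731% to 2.20% (in the frontal cortex without the 2 sorts, 0.479% and 1.22%). Lung macrophages were at 2.48% to 3.19% on the astrocyte list. There SLC1A2 was at 5.77%, above its level in the 3 regions, with SLC1A3 at 2.54% and GFAP at 0.0246%. The median over the genes of this list, which SLC1A3 does not carry, was 3.38% in the frontal cortex sort of pig 12891, the highest of the 24, and 1.81% in that of pig 12599. It was 0.323% to 1.11% in the other 6 frontal cortex sorts, and 2.90% in the hippocampal sort of pig 12817 and 1.88% in that of pig 12781, both high on AQP4. In lung macrophages this median was 1.91% to 3.16%. Mural cell genes (6 measured, such as RGS5 and PDGFRB) were at 0.0720% to 7.28%, highest in the frontal cortex sort of pig 12891. Without the 2 sorts the frontal cortex mean fell for PDGFRB (2.24 to 1.05 CPM), RGS5 (0.724 to 0.293), NOTCH3 (0.699 to 0.321) and TAGLN (0.849 to 0.798). The mean rose for ACTA2 (0.686 to 0.914 CPM) and KCNJ8 (0.0415 to 0.0554 CPM).

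**Figure D4:**
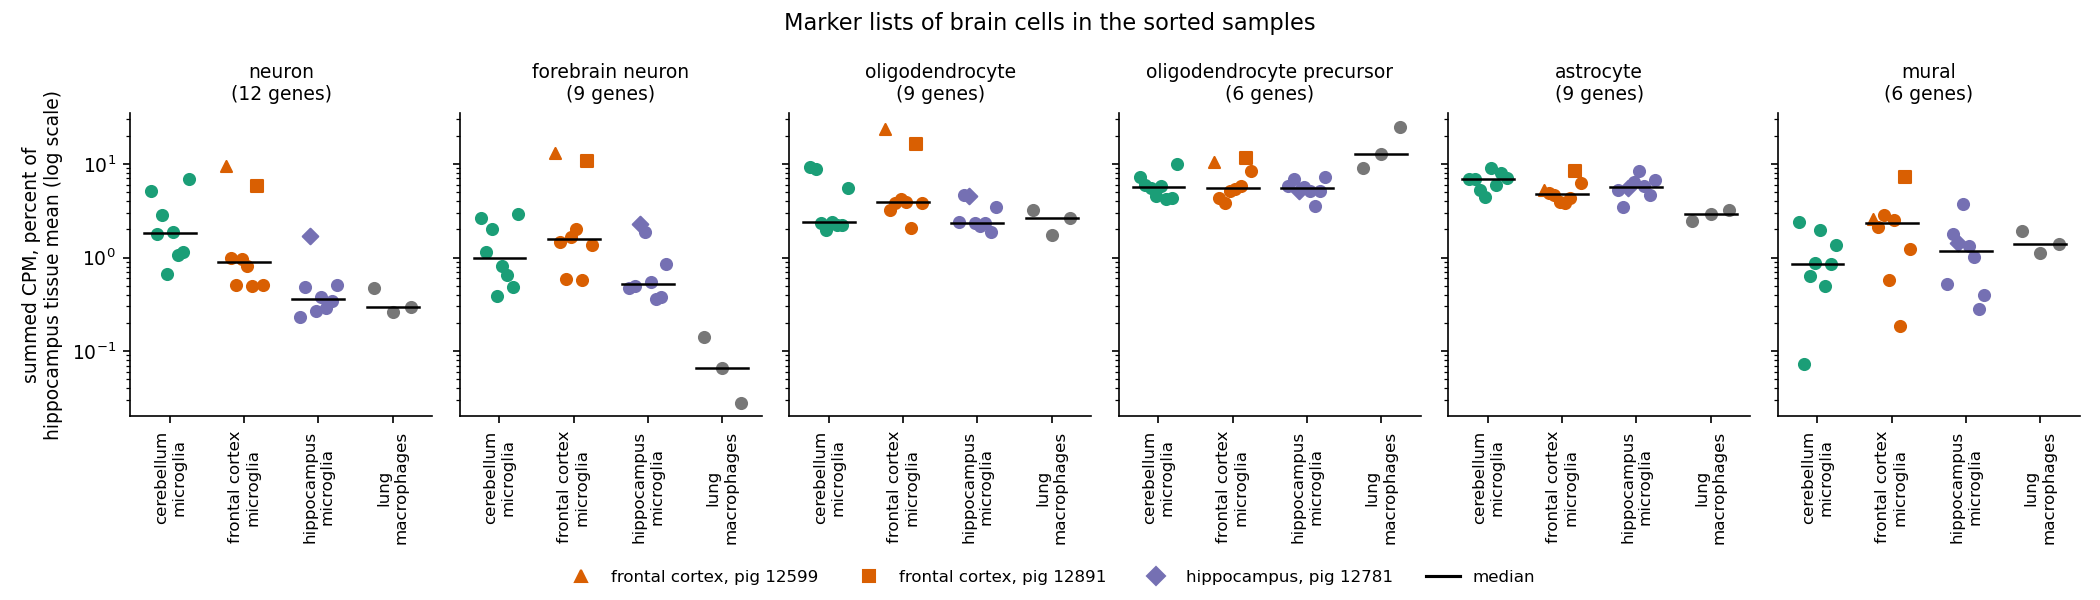
Each point is the summed CPM of 1 marker list in 1 sorted sample as a percent of the hippocampus tissue mean, on a log axis, with black lines for group medians. The frontal cortex sorts of pigs 12599 and 12891 are apart on the neuron (9.59% and 5.87%), forebrain neuron and oligodendrocyte lists, while their astrocyte sums (5.20% and 8.38%) lie within the range of the other sorts.

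CLDN5 is 1 of several endothelial genes measured. The endothelial list (9 measured) summed to 80.1% to 184% of tissue in the sorts, with TIE1 and EGFL7 at 890% and 438% of tissue over the 24 sorts. FLT1, a receptor of vascular growth factor, was at 1.66% and CDH5 at 0.330%, next to 2.21% for CLDN5. Without the 2 frontal cortex sorts FLT1 was at 1.38%, CDH5 at 0.360% and CLDN5 at 1.09%. ROBO4 fell from 0.981% to 0.172% and ESAM from 3.64% to 2.51%, while CDH5 and TEK (43.2% to 46.3%) did not fall. CDH5 was near the floor, at 0 CPM in hippocampal sorts. Its means were 0.0644 CPM in cerebellar and 0.122 CPM in frontal cortex sorts. PECAM1 and TEK lay between, at 32.6% and 43.2%. TIE1, CDH5, PECAM1, TEK, ROBO4 and ESAM, like RBFOX3 and CD79B below, were chosen after their values were seen. A list of cerebellar neuron genes (9 measured, such as FAT2, ZIC1 and ZIC2) was at 110% to 1496% of the hippocampal tissue level in cerebellar sorts, highest in pigs 12902 and 12583, and at 20.6% to 34.3% in hippocampal sorts. On this list a percent of hippocampal tissue is no share of cerebellar tissue, which was not analysed here.

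Genes of the brain cell lists also passed between regions. FAT2, a cadherin of cerebellar granule cells, had 176 ± 165 CPM in cerebellar sorts, 16.3 ± 25.5 CPM in frontal cortex sorts (7.29 ± 3.17 CPM without the 2 sorts) and 6.38 ± 1.96 CPM in hippocampal sorts (adjusted p = 3.33e-05 in edgeR). CAMK2A, a synaptic kinase of forebrain neurons, was at 1.22, 25.4 and 8.72 CPM in the same order, with 9.70 CPM in the frontal cortex without the 2 sorts (adjusted p = 0.00407 in edgeR). RBFOX3, a nuclear protein of neurons, was higher in cerebellar than in hippocampal sorts (adjusted p = 0.00461 in edgeR). Over all genes 0.438% were called higher in cerebellar than in hippocampal sorts and 0.894% higher than in frontal cortex sorts. By list in edgeR, 1 of 12 tested neuron genes, 2 of 6 forebrain neuron genes (CAMK2A among them) and 1 of 1 tested cerebellar neuron gene passed. Limma-voom called 0, 0 and 1 of them, DESeq2 2, 3 and 1, and edgeR with the pig as a replicate block 0, 1 and 1. Without the 2 frontal cortex sorts edgeR called 3, 2 and 1. Over all 11633 tested genes the region test called 236 in edgeR, 225 in limma-voom, 790 in DESeq2 and 85 with the edgeR block. It called 497 of 11690 in edgeR without the 2 sorts. The test of CAMK2A over the 3 regions missed the threshold in limma-voom (adjusted p = 0.204), with the edgeR block (0.0259) and, in edgeR, without the 2 sorts (0.0108). That of RBFOX3 missed it in limma-voom (adjusted p = 0.0263) and with the edgeR block (0.133), and that of FAT2 passed in every fit named here. In edgeR 0 of 8 astrocyte genes passed (3 with an unadjusted p under 0.05), as did 0 of 7 endothelial (2), 0 of 8 oligodendrocyte (5), 0 of 6 oligodendrocyte precursor (3) and 0 of 3 mural genes (0). Limma-voom and DESeq2 called 0 genes of these lists too, except 1 endothelial gene each.

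Lists of blood and border cells were summed in the same way. The border macrophage list (4 measured: CD163, MRC1, LYVE1 and F13A1) was highest in the frontal cortex sorts of pigs 12891 (357% of tissue) and 12599 (265%), against 14.8% to 161% in the other 22 sorts and at least 6111% in lung macrophages. Without the 2 sorts the frontal cortex mean fell for CD163 (7.22 to 2.49 CPM), MRC1 (1.47 to 0.394) and LYVE1 (0.506 to 0.0173). That of F13A1 rose from 0.884 to 1.09 CPM. The erythroid list (HBB, ALAS2 and HBM) was at 683% in the frontal cortex sort of pig 12599 and at 26.5% in that of pig 12891. Lymphocyte genes (5 measured) were at 2812% and 2146% in these sorts, within the range of all sorts (679% to 3605%), and CD79B, a B cell gene, had no count in any microglia sort. The 2 measured neutrophil genes were at 903% and 182%, within the range of all sorts (0% to 1348%). In tissue S100A8 was at 0.284, S100A12 at 0.0298 and CD3D at 0.157 CPM, where 3 counts correspond to 0.0894 to 0.0945 CPM. Percents of such tissue levels rest on few counts. The part of border macrophages and of blood cells in the values of the 5 genes was not tested. In edgeR 1 of 5 lymphocyte genes passed between regions (CD3D, lowest in the hippocampus, where 0.189% of genes were called lower than in frontal cortex sorts), and 0 of 9 microglia, 0 of 3 border macrophage, 0 of 2 neutrophil and 0 of 1 erythroid genes, with an unadjusted p under 0.05 for 3, 0, 0 and 1 of them. Limma-voom called 0 of these genes and DESeq2 called CD3D and 1 erythroid gene. With the pig as a replicate block in edgeR the CD3D call was lost (adjusted p = 0.168).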

How the data were processed

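Counts per gene were deposited as 1 table of 31907 genes and 31 samples. Per the study's methods the authors aligned reads to Sscrofa11.1 (Ensembl) with HISAT2 and derived counts with StringTie, from stranded total RNA libraries. How StringTie turned coverage into counts, and the tool versions, are not given in the sources used here. Samples were grouped by their source label. The pig tag paired samples of the same animal, and the within-pig correlation estimated by limma was 0.205. Without the pig as a block, p-values treat samples of 1 pig as independent.

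TMM-normalized CPM and the quasi-likelihood test were computed in edgeR 4.0.16 (R 4.3.3) over all 5 groups, for the 11633 genes with over 10 CPM in all samples of a group. A call needed a Benjamini-Hochberg adjusted p under 0.01, and against macrophages a fold over 3. Percents are 100 times CPM over the mean CPM of the 4 tissue samples. Alternatives used limma 3.58.1 (voom), DESeq2 1.42.0, other normalization, filters and thresholds, the pig block, and each sample left out. Leaving out the frontal cortex sorts of pigs 12599 and 12891 was chosen after seeing the data. Correlations used log2 CPM with a prior count of 2 and 100000 permutations, two-sided. On simulated counts for cerebellum against frontal cortex (11633 genes), edgeR recovered 83 of 100 genes changed 4-fold and 91 of 100 changed 8-fold.

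The members and marker lists were chosen with earlier results of these data known. Named were the 5 genes, the 3 genes of each list highest in tissue, and the 3 genes most alike to each member, of which 1 gene is not reported here. Symbols were matched for 9812 of the tested genes. Python 3.11.15 with scipy 1.17.1 was used for the rest.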

Additional observations from a re-analysis of the deposited data

Results flagged for a closer look

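Within groups of 4 to 10 samples, 7 of 43 searched groups held a sample far from the others by Dixon's test. Chance gives about 1 in 20 for normally distributed values. The percents searched were skewed and some groups held many zeros, so 7 of 43 cannot be read as an excess over chance. On SULT4A1 the samples found were the frontal cortex sort of pig 12599, at 13.8% of the tissue mean, and the hippocampal sort of pig 12781, at 0.550%, the only hippocampal sort with a count. With the other 7 at 0 any count would have met the criterion, so this one carries no weight as a test, and the share that chance gives does not apply to it. The hippocampal sort of pig 12781 was also far above its group on the neuron list, at 1.68%. The frontal cortex sort of pig 12891 was far above its group on the cerebellar neuron list, at 244%, and on the mural list, at 7.28%. On the mural list the hippocampal sort of pig 12817, whose CLDN5 was at 2.26%, was the highest of its group, at 3.74%. Among the tissue samples CLDN5 was highest in pig 12872, at 116% of the mean of the 4.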

How the results depend on the processing

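The percents of tissue moved by less than 1 SD under other normalization factors, the median or the same pig's tissue as reference, and each sample left out. Because the spread is wide, some medians still moved by over 1.5 times with 1 sort left out. That of CLDN5 ran from 0.347% to 1.15% in the frontal cortex, whichever sort was left out, and from 0.585% to 1.99% in the hippocampus, and that of GPR26 fell to 0.258% over all sorts and in the hippocampus. Among the 5 genes, the region test called 1 in edgeR and 0 in limma-voom or with the pig as a replicate block in edgeR. Of 15 pairwise region tests 1 was called, against 2 at an adjusted p under 0.05 or in DESeq2 and 0 with the edgeR replicate block. Against macrophages the 0 called became 1 at an adjusted p under 0.05, in limma-voom, without normalization factors, with either other filter, with the edgeR replicate block and without the frontal cortex sorts of pigs 12599 and 12891, and 2 in DESeq2 or with the limma replicate block. Leaving out single samples gave 0 to 1. The calls over all 11633 genes moved as well. The region test called 236 in edgeR, 225 in limma-voom and 85 with the edgeR block. Cerebellum against hippocampus gave 70 in edgeR, 424 at an adjusted p under 0.05, 452 in DESeq2 and 0 with the edgeR block. Against macrophages the calls were 2597 in edgeR, 2389 in limma-voom, 2885 in DESeq2 and 2080 with the edgeR block. Of the 10 correlations 3 passed, against 0 with a prior count of 0.5, 1 without the 2 samples farthest out, 1 of 6 within the cerebellum, 0 of 6 within the hippocampus, 0 without the 2 sorts and 0 to 4 with single samples left out (0 without either frontal cortex sort alone).

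Some uncalled log2 fold changes turned their direction, and the cause was not tested. For CLDN5, cerebellum minus frontal cortex was 0.57 in limma-voom, 0.0020 with the edgeR replicate block, 0.55 with the limma replicate block and 1.203 without the 2 sorts. For SULT4A1 the same difference was 0.33 in limma-voom, 0.25 with the limma replicate block, and 1.71 without the 2 sorts. Frontal cortex minus hippocampus for CLDN5 was -0.37 and -0.11 with the edgeR and limma replicate blocks and -0.98 without the 2 sorts, where AQP4 gave -0.37 and RTL6 -0.0077. Cerebellum minus hippocampus for CLDN5 was -0.37 with the edgeR replicate block and -0.0089 to 0.42 with single samples left out. GPR26 against macrophages was -0.17 with the edgeR replicate block, -0.16 without the 2 sorts and -0.14 to 5.20 with single samples left out.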
